A study of Mus musculus with 12 samples.

Results

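The 10 genes described here are the immediate early genes Fos, Fosb, Jun, Junb, Atf3, Egr1, Egr3, Nr4a1, Ier2 and Arc, taken by name from a table of 37432 genes measured by RNA-seq in 12 libraries of mouse cochlea. All 10 were found and all 10 passed the filter on low values, which left 16215 genes for testing. They were picked by name as genes that dissection or nerve activity can raise, and the rule uses no measured value. The choice was made with earlier results of these data known.

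The study compared male wild-type mice with male Gjb2 35delG/35delG mice, called homozygous here, at P14. Gjb2 encodes connexin 26, a gap junction protein of the non-sensory cells of the cochlea, and 35delG is the deletion of a single base that disrupts it. Each cochlea was divided surgically into an apical, a middle and a basal turn, and each of the 6 combinations had 2 libraries, called repeats 1 and 2. The wild-type mice were bought at the same age. The homozygous mice were grown from mutant male embryonic stem cells in tetraploid embryos, were nearly C57BL/6J in background, were delivered by cesarean section and were nursed by ICR females. Genotype and origin of the mice therefore cannot be told apart. The paper calls the 2 libraries of a group biological repeats. The number of mice, cochleae and stem cell lines behind a library is not given in the sources used here. Whether the 3 turns of a repeat come from the same animals is not given either. The p-values therefore measure the spread between these repeats, part of which may be technical.

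Immediate early genes are transcribed within minutes of a stimulus from factors that the cell already holds, without new protein synthesis. Fos, Fosb, Jun and Junb encode subunits of the AP-1 transcription factor, and Atf3 encodes a related leucine zipper protein of the stress response. Egr1 and Egr3 encode zinc finger transcription factors, Nr4a1 encodes an orphan nuclear receptor, Ier2 a nuclear protein of the same rapid response, and Arc a cytoskeleton-associated protein of active synapses. In the cochlea such genes are known to respond to sound, to damage and to the handling of fresh tissue. Cutting and waiting time before lysis were not given in the sources used here.

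Many of these promoters are known to be reached by CREB, which binds the cyclic AMP response element TGACGTCA and its shorter form TGACG. RefSeq promoter windows of GRCm38.p6 were at hand for 6 members, Fos, Fosb, Jun, Junb, Atf3 and Nr4a1, and not for Egr1, Egr3, Ier2 and Arc. The 150 bases that end just before the RefSeq start are shown for 4 of them. The levels of 3, Fos, Fosb and Junb, moved together over the libraries (Pearson's r from 0.667 to 0.900). Nr4a1 followed these less closely (r from 0.018 to 0.528). Capitals mark TGACG or its reverse complement CGTCA. They lie at chr12:85473740-85473889 for Fos on the plus strand, chr7:19310046-19310195 for Fosb and chr8:84978749-84978898 for Junb on the minus strand, and chr15:101266696-101266845 for Nr4a1 on the plus strand.
Fos: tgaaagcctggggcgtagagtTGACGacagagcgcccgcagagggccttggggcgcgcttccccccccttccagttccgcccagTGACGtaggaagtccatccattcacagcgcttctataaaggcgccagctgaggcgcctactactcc
Fosb: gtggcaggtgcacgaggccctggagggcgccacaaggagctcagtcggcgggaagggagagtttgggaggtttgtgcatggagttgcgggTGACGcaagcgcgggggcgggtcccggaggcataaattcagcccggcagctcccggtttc
Junb: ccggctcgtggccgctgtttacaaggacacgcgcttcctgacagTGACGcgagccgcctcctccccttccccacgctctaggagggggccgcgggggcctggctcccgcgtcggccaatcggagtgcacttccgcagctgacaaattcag
Nr4a1: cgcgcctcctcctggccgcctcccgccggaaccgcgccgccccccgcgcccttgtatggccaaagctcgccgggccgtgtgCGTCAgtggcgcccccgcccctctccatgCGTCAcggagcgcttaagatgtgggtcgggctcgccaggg

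Searched on both strands over the whole 300-base windows, TGACG was found in 5 of the 6 member promoters and in 20.8% of 32851 RefSeq windows. Fos held it at 129 and 66 bases before its start (positions -129 and -66), Fosb at -60, Junb at -106, Atf3 at -7 and Nr4a1 at -233, -213, -69 and -40, counted to the first base of the match. The full TGACGTCA, which contains TGACG, was in 1.79% of windows and in 0 of the 6. The AP-1 site TGANTCA was in 7.81% of windows and in 0 of the 6, and the CArG box of serum response factor was in 1.63% and in 0 of the 6. A match describes letters only, and a missing match says only that these letters are not in this window.

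The FPKM (fragments per kilobase of transcript, scaled to the library total) of a library summed to between 316425 and 408162, and 13729 to 14703 genes reached 1 FPKM. Read counts were not used here, so depth is unknown, and precision can be judged only from the repeats. Levels below are FPKM divided by a library factor of 0.917 to 1.06, called scaled FPKM. Hair cell, supporting cell, strial, fibrocyte and neuron markers were present, though not all in every library. The supporting cell markers Sox2 and Gjb6 were at 6.12 to 15.8 and 124 to 448 scaled FPKM. Others fell low in some libraries. The hair cell markers Slc26a5 and Otof ran from 0 to 27.5 and from 0.0982 to 61.7. The strial marker Kcnq1 ran from 0.574 to 60.05 and the neuron marker Nefl from 1.70 to 594. In bulk pieces, fewer cells of a type and less RNA per cell cannot be told apart.

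The cell content of the pieces labelled middle and basal did not match between the genotypes. The summed level of 12 neuron markers was 1643 and 1765 scaled FPKM in the wild-type middle turn and 3019 and 3442 in the homozygous basal turn. It was 56.0 and 901.5 in the wild-type basal turn and 402.4 and 74.8 in the homozygous middle turn. Fibrocyte markers, 7 in number, summed to 2848 and 530.7 in the homozygous basal turn. Their sums were 7526 and 8128 in the wild-type middle turn and 7644 and 7138 in the wild-type basal turn. Over all genes, 4.29% were called between the genotypes in the basal turn and 0.179% in the middle turn. Homozygous basal libraries set against wild-type middle libraries gave 0.117%, and homozygous middle against wild-type basal gave 0.0802%. Whether pieces of one genotype carry each other's labels was not tested. The members' genotype differences in the middle and basal turns are given with this exchange as well, and the mean over the 3 turns is the same either way. Differences between turns, and the longer gene lists, were fitted with the labels as given only. Repeat 2 of the wild-type basal turn had summed bone markers of 5202 against 997.2 to 4251 in the others, and the highest erythroid sum (4993 against 232.2 to 3535). Its neutrophil sum was 2050, against 421.1 in repeat 1. The highest neutrophil sum, 6326, was in repeat 1 of the homozygous middle turn, which also had the next highest bone and erythroid sums, 4251 and 3535. Mitochondrial genes took 17.1% of the FPKM in repeat 2 of the wild-type basal turn and 20.6% in repeat 2 of the wild-type middle turn, against 7.32% to 13.8% in the other 10 libraries. The part of these marker sums and mitochondrial shares in the members' values was not tested.

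In levels per length, Ier2, Egr1, Jun and Junb were the most abundant members, with medians over the 12 libraries of 15.0, 14.6, 13.9 and 11.1 scaled FPKM. Nr4a1 followed at 6.97 and Fos at 5.49. Egr3 at 1.99, Atf3 at 1.91, Arc at 0.685 and Fosb at 0.279 were low, and Fosb lay at the 1.56th percentile of the genes tested. Fosb reached 1 FPKM in 2 libraries, repeat 2 of the homozygous apical turn and repeat 2 of the wild-type basal turn. Arc reached it in 3, both repeats of the homozygous basal turn and repeat 1 of the wild-type middle turn. Fosb and Arc were tested only because of these high libraries. Their p-values and overlaps in comparisons with these groups are therefore not independent of the filter. No member was at 0 in any library.

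Fos (chr12, 85473890 to 85477273 on the plus strand of mm10), the founding AP-1 subunit, ranged 17.0-fold between libraries. It measured 2.57 and 8.03 scaled FPKM in the wild-type apical turn, 6.27 and 2.07 in the middle turn and 1.85 and 31.5 in the basal turn. In homozygous mice it measured 7.05 and 21.2, 10.3 and 4.71, and 1.95 and 3.72 in the same order of turns. The lowest and the highest of the 12 values were thus repeats of the same group, the wild-type basal turn. The pooled standard deviation within groups on the log2(scaled FPKM + 1) scale was 1.27, larger than for 98.98% of the genes tested, whose median was 0.252.

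Fosb (chr7, 19302696 to 19310051, minus strand), which pairs with Jun proteins as Fos does, had its 2 highest values in repeat 2 of the homozygous apical turn (2.99) and repeat 2 of the wild-type basal turn (1.18). Repeat 1 of the homozygous apical turn followed at 0.916, and every other library was between 0.0518 and 0.582. Junb (chr8, 84976910 to 84978718, minus strand), a subunit with weaker activating power than Jun, showed the same basal contrast between repeats as Fos. Its level was 10.9 and 42.1 in the wild-type basal turn and 4.09 and 5.87 in the homozygous basal turn, and it lay between 5.61 and 23.9 in the other 8 libraries. The Junb values of the basal turn did not overlap between genotypes, although the 2 wild-type repeats differed 3.85-fold.

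Jun (chr4, 95049034 to 95052222, minus strand), the main partner of Fos in AP-1, varied less, from 6.78 to 25.7 scaled FPKM. Its values were 6.78 and 21.95 in the wild-type basal turn and 25.7 and 18.2 in the homozygous basal turn. Apical and middle values lay between 8.04 and 16.9 in both genotypes. An antisense transcript, Junos, overlaps Jun and was between 0 and 1.24 scaled FPKM. The strand setting of the counting is not given in the sources used here, so reads of Jun and of Junos cannot be told apart. Atf3 (chr1, 191170296 to 191218039, minus strand), induced by injury in neurons and other cells, was lowest in the wild-type apical turn, at 0.829 and 0.683, and in repeat 1 of the wild-type basal turn, at 0.830. Its highest values were 4.48 in repeat 1 of the homozygous basal turn, 3.31 in repeat 2 of the homozygous apical turn and 3.20 in repeat 2 of the wild-type basal turn.

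Egr1, a zinc finger factor switched on by growth factors and by synaptic activity, measured 5.10 and 16.3 in the wild-type apical turn, 13.5 and 3.08 in the middle turn and 5.95 and 29.1 in the basal turn. In homozygous mice it measured 15.8 and 27.2, 15.7 and 17.6, and 6.32 and 5.60. All 6 homozygous values lay within the range of the wild-type values. Egr3 (chr14, 70077203 to 70082550, plus strand), a close relative of Egr1, was 0.652 and 0.974, 2.24 and 0.294, and 0.534 and 1.77 in the wild-type turns. Its homozygous values were 1.94 and 2.87, 2.58 and 4.02, and 2.32 and 2.03. Homozygous Egr3 exceeded wild-type Egr3 within each turn, and across turns repeat 1 of the wild-type middle turn lay within the homozygous range.

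Nr4a1 (chr15, 101254269 to 101274795, plus strand), also called Nur77, was the only member whose 6 homozygous values all lay above its 6 wild-type values. It measured 5.73 and 6.69, 4.73 and 6.72, and 2.92 and 5.73 scaled FPKM in the wild-type apical, middle and basal turns. It measured 8.04 and 13.99, 10.54 and 9.83, and 7.23 and 10.8 in the homozygous turns. Such a separation of all 6 from all 6 libraries, in either direction, was seen for 1.47% of the genes tested.

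Ier2 (chr8, 84661331 to 84662854, minus strand) measured 11.5 and 23.1, 16.5 and 9.13, and 15.0 and 38.5 in the wild-type turns. It measured 14.2 and 29.2, 20.4 and 15.0, and 5.54 and 6.13 in the homozygous turns. The homozygous basal values were the 2 lowest of the 12. Arc (chr15, 74669083 to 74672570, minus strand), an effector at the synapse and not a transcription factor, was 0.333 to 0.973 in the wild-type apical and basal turns, 2.05 and 0.619 in the wild-type middle turn and 1.42 and 1.11 in the homozygous basal turn. In the homozygous apical and middle turns it stayed between 0.429 and 0.916.

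**Figure D1:**
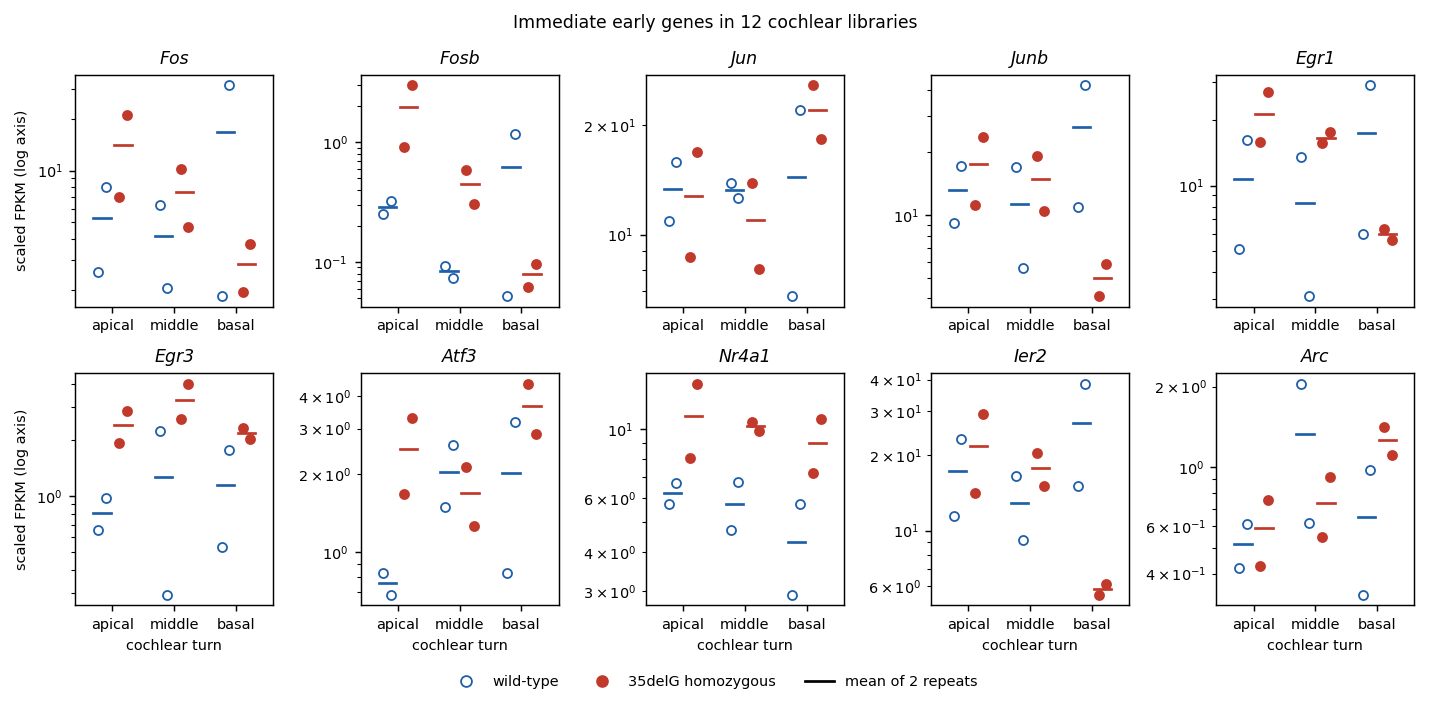
Scaled FPKM of the 10 genes on log axes, by cochlear turn. Open blue circles are wild-type and filled red circles homozygous libraries, and short lines are the means of the 2 repeats. For Fos the 2 wild-type basal libraries lie at 1.85 and 31.5, and for Nr4a1 every homozygous library lies above every wild-type library.

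In 5 of the 6 groups the members' median difference between repeats was above 1.5 times that of all genes. In the wild-type basal turn the median absolute log2 difference between the repeats was 1.25 for the 10 members against 0.353 for all genes tested, and 9 of 10 members differed over 2-fold, as 27.95% of genes of like level did. All 10 were higher in repeat 2. In the wild-type middle turn the medians were 0.852 and 0.214, with 5 members over 2-fold beside 14.4% of genes of like level. The homozygous apical turn gave 0.814 and 0.234, with 4 members over 2-fold beside 11.3%, and all 10 were higher in repeat 2.

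In the homozygous basal turn, by contrast, the members' median of 0.315 lay beside 0.298 for all genes, and 0 of 10 differed over 2-fold where 17.3% of genes of like level did. The wild-type apical turn gave 0.380 against 0.141, with 3 members over 2-fold beside 8.28% of genes of like level. The homozygous middle turn gave 0.447 against 0.240, with 1 member over 2-fold beside 16.8%. Fos, Egr1, Junb, Ier2 and Jun had within-group spreads above 90% of the genes tested, and the smallest spread among members, that of Arc, lay at the 68.4th percentile.

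**Figure D2:**
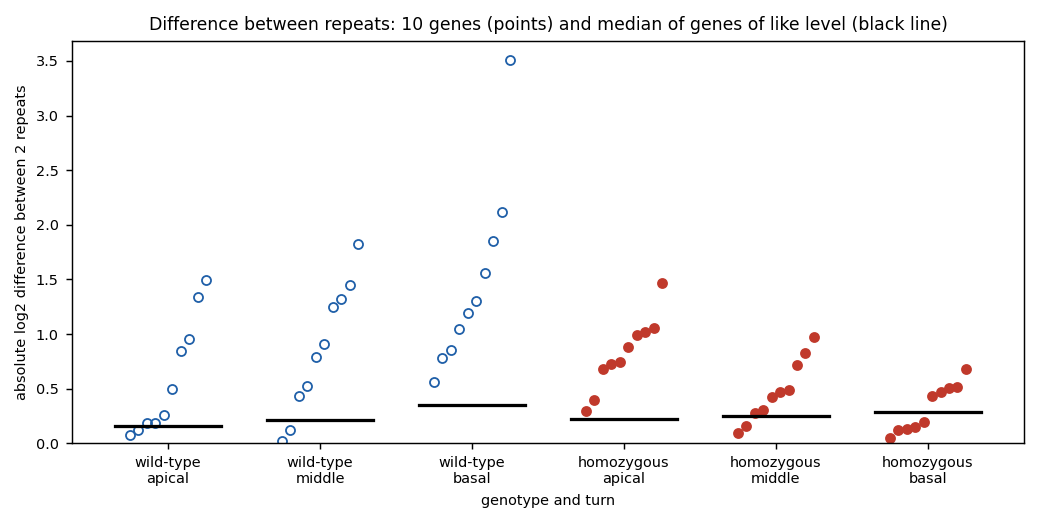
Absolute log2 difference between the 2 repeats of each group, on the log2(scaled FPKM + 1) scale, for the 10 genes (points, sorted) and the median of 11872 genes of like level (black lines). The members reach 3.51 in the wild-type basal turn and 0.680 in the homozygous basal turn.

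The genes tended to be high or low together in a library. In repeat 2 of the homozygous apical turn all 10 members were above their own median, and 8 of them had 1 of their 2 highest values there. In repeat 2 of the wild-type basal turn 8 were above their median. In repeat 1 of the wild-type apical turn 0 members were above it, and in repeat 1 of the wild-type basal turn and repeat 2 of the wild-type middle turn 1 member each.

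Over the 12 libraries, Pearson's r on the log2 scale ran from 0.667 to 0.971 (median 0.835) in the 10 pairs among Fos, Fosb, Egr1, Junb and Ier2, with Junb and Ier2 the closest pair. Among the other 5 genes it ran from 0.0613 to 0.723 (median 0.453, 10 pairs), and between both sets from -0.178 to 0.642 (median 0.146, 25 pairs). The sets were drawn after the values were seen, and the libraries share groups and scaling, so these are descriptions. When only deviations from the group means were used, which leaves 6 independent differences, all 45 pairs were positive, from 0.109 to 0.995 with a median of 0.713.

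**Figure D3:**
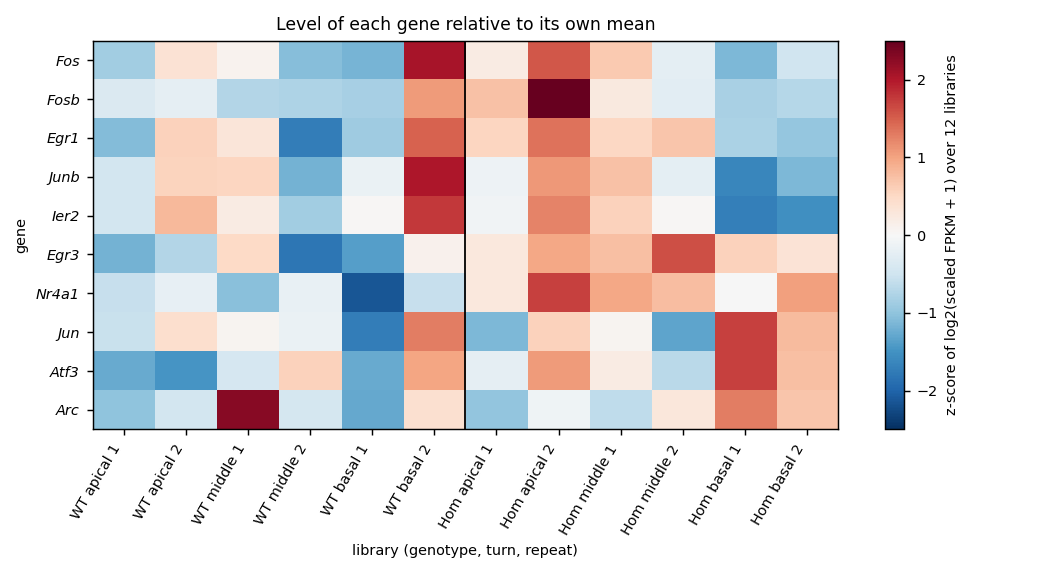
Each gene's log2(scaled FPKM + 1) as a z-score over the 12 libraries, with wild-type libraries left of the line and homozygous libraries right of it. Repeat 2 of the wild-type basal turn and repeat 2 of the homozygous apical turn are high for most genes, and in the 2 homozygous basal libraries Junb and Ier2 are low while Jun and Atf3 are high.

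The genotypes were compared with limma on log2(scaled FPKM + 1), and called genes were those with a fold over 2 and an adjusted p under 0.01. In the apical turn 0 of 10 members were called, beside 0.179% of all genes tested, and 2 were at an unadjusted p under 0.05, beside 16.4% of all genes. The median log2 fold change of the members was 0.80, against -0.03 for all genes. In the same comparison all 7 strial marginal cell markers had positive estimates (median 1.88, 6 at an unadjusted p under 0.05), as did all 8 bone markers (median 1.88, 2 at that level). All 8 neutrophil and all 7 erythroid markers were positive too. Negative estimates were seen for all 10 hair cell markers (median -0.87, 6 at that level) and all 10 Schwann cell and myelin markers (median -0.70). Of 12 neuron markers 10 were negative (median -1.46). None of these markers was called. The part of cell content in the members' shift was not tested. The 2 members at an unadjusted p under 0.05 were Fosb, with a log2 fold change of 1.10 (SE 0.40, adjusted p = 0.224 with limma), and Atf3, with 0.95 (SE 0.42, adjusted p = 0.301). The 2 libraries of each genotype did not overlap for 4 members, Fosb, Egr3, Atf3 and Nr4a1, all higher in homozygous mice, beside 59.0% of all genes. Without repeat 2 of the homozygous apical turn the estimate for Fos went from 1.24 to 0.50, that for Nr4a1 from 0.69 to 0.33, the estimate for Jun went from -0.10 to -0.54, and Junb, Ier2 and Arc became negative, at -0.15, -0.19 and -0.08. Fosb then reached 1 FPKM in 1 library and was not fitted.

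In the middle turn 0 of 10 members were called, beside 0.179% of all genes, and 2 were at an unadjusted p under 0.05, beside 25.4%. These were Egr3, at 1.05 (SE 0.44, adjusted p = 0.176 with limma), and Nr4a1, at 0.75 (SE 0.33, adjusted p = 0.196). Without repeat 2 of the wild-type middle turn Egr3 gave 0.39 (adjusted p = 0.641). Fosb, Egr1, Egr3 and Nr4a1 did not overlap, all higher in homozygous mice, beside 59.5% of all genes. With homozygous middle set against wild-type basal libraries, 0 members were called, Egr3 gave 1.04 and Nr4a1 1.12 (adjusted p = 0.689 and 0.456), whereas the estimates for Fos, Fosb, Junb, Ier2 and Arc changed sign.

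In the basal turn 0 of 10 members were called, beside 4.29% of all genes, and 3 were at an unadjusted p under 0.05, beside 32.4%. Ier2 was lower in homozygous mice by a log2 fold change of -1.88 (SE 0.51, adjusted p = 0.0361) and Junb by -1.94 (SE 0.69, adjusted p = 0.0862), while Nr4a1 was at 0.94 (SE 0.33, adjusted p = 0.0808). Junb and Ier2 did not overlap in the lower direction and Egr3, Nr4a1 and Arc in the higher, 5 members beside 54.0% of all genes. Arc passed the filter partly through the homozygous basal turn, so its separation here is not independent of the filter. The median member stood at -0.01, against -0.02 for all genes.

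Several basal values rested on repeat 2 of the wild-type basal turn. Without it Ier2 gave -1.23 and Junb -1.01, Fos went from -1.37 to 0.39 and Egr1 from -1.06 to 0.00. Nr4a1 then went from 0.94 to 1.33, Jun from 0.76 to 1.54 and Atf3 from 0.73 to 1.33. Without repeat 1 of the same group Ier2 gave -2.54, Junb -2.87 and Fos -3.13. Jun then went from 0.76 to -0.02, Nr4a1 from 0.94 to 0.54 and Atf3 from 0.73 to 0.13. With homozygous basal set against wild-type middle libraries, Ier2 gave -0.96, Junb -0.88, Fos -0.34 and Nr4a1 0.57, with 0 members called and 0 at an unadjusted p under 0.05. Jun, Egr3 and Atf3 gave 0.67, 0.63 and 0.62 there, Egr1 -0.14, Arc 0.02 and Fosb -0.01.

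Averaged over the 3 turns, 0 of 10 members were called, beside 0.376% of all genes, and 2 were at an unadjusted p under 0.05, beside 18.6%. Nr4a1 was 0.79 higher on the log2 scale in homozygous mice (SE 0.19, adjusted p = 0.0680 with limma), and the 6 libraries of each genotype did not overlap. Leaving out a single library moved it between 0.66 and 0.92, with adjusted p between 0.0166 and 0.187. Egr3 was 0.86 higher (SE 0.25, adjusted p = 0.115). The other members were between -0.37 (Ier2 and Junb) and 0.50 (Atf3), with Fos at 0.21.

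**Figure D4:**
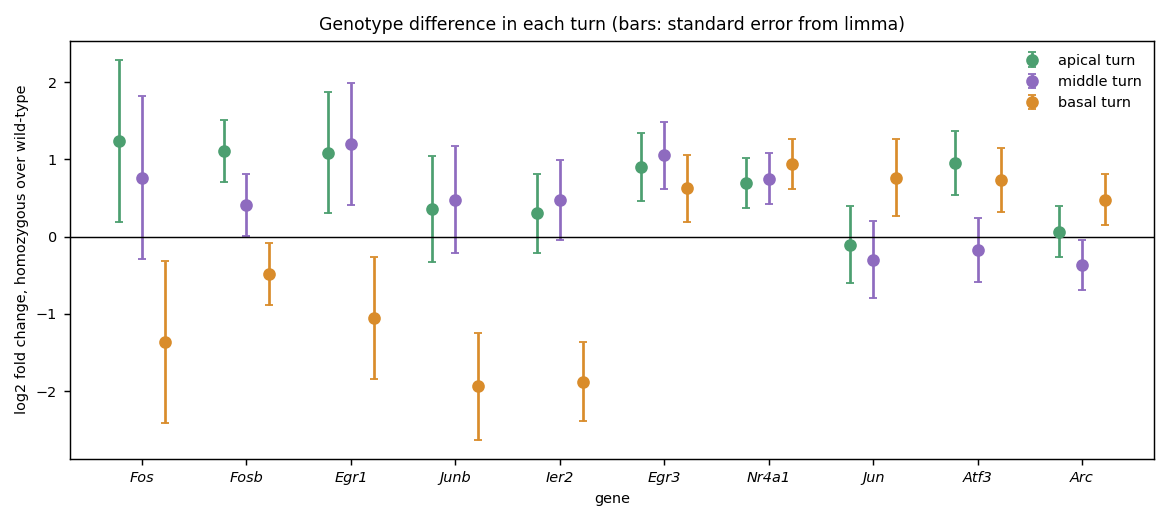
Log2 fold change, homozygous over wild-type, of the 10 genes in each turn, with bars of 1 standard error from limma. Nr4a1 lies at 0.69, 0.75 and 0.94 in the apical, middle and basal turns, and Junb and Ier2 lie near -1.9 in the basal turn alone.

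Whether the genotype difference itself differed between turns was tested as an interaction. Between the basal and middle turns 0 members were called, beside 8.91% of all genes, and 2 were at an unadjusted p under 0.05, beside 37.7%. These were Ier2, at -2.36 (SE 0.73, adjusted p = 0.0471 with limma), and Junb, at -2.42 (SE 0.98, adjusted p = 0.107). Between the basal and apical turns 0 members were called, beside 0.796%, and 3 were at an unadjusted p under 0.05, beside 28.4%. These were Ier2, at -2.18 (adjusted p = 0.0843 with limma), Junb, at -2.29 (adjusted p = 0.163), and Fosb, at -1.59 (adjusted p = 0.103). Between the middle and apical turns 0 members were called, beside 0% of all genes, and 0 were at an unadjusted p under 0.05, beside 8.05%. Without repeat 2 of the wild-type basal turn the Ier2 values against the middle and apical turns were -1.70 and -1.53 and those of Junb -1.49 and -1.37, and Fosb was not fitted.

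Turns were also compared within each genotype. In wild-type mice 0 members were called, and 0 were at an unadjusted p under 0.05, between the middle and apical turns (beside 0.0863% of all genes called), between the basal and apical turns (beside 0.0863%) and between the basal and middle turns (beside 0%). Of all genes, 19.9%, 20.3% and 15.2% were at an unadjusted p under 0.05, in the same order. In homozygous mice 0 members were called between the middle and apical turns, beside 0% of all genes, with Fosb at -0.94 on the log2 scale and an unadjusted p of 0.0444 under limma. In that comparison 2.65% of all genes were at an unadjusted p under 0.05. Between the homozygous basal and apical turns 0 were called, beside 4.06%, and 2 were at an unadjusted p under 0.05, beside 32.9% of all genes. These were Fosb, at -1.36 (SE 0.40, adjusted p = 0.0479 with limma), and Ier2, at -1.65 (SE 0.51, adjusted p = 0.0565). Fosb passed the filter partly through the homozygous apical turn, so its values against that turn are not independent of the filter. Between the homozygous basal and middle turns 0 were called, beside 4.66%. Ier2, at -1.44 (SE 0.51, adjusted p = 0.0833 with limma), was the only member at an unadjusted p under 0.05, beside 34.6% of all genes. Since no pair of groups tested passed for any member, the order of the group means is not established for these genes.

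Marker genes of other cell types moved with some members. The homozygous basal turn, where Ier2 and Junb were low, had summed levels of 9 supporting cell markers of 564.1 and 387.0, against 1008 to 2389 in the other 10 libraries, and of 7 fibrocyte markers of 2848 and 530.7, against 7053 to 12850. Over the 12 libraries the log2 sum of supporting cell markers had r = 0.71 with Ier2. Of these markers 1, Tectb, was at 0 in some libraries. The supporting cell list includes Gjb6 and the mutated gene Gjb2, and the fibrocyte list includes Gjb2. The paper reported lower Gjb2 and Gjb6 RNA in homozygous cochlea by qPCR, so these sums do not measure cell content alone. The part of cell content in the Ier2 and Junb values was not tested.

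Jun followed the neuron markers, whose log2 sum had r = 0.80 with it over the 12 libraries, and Arc followed 10 Schwann cell and myelin markers at r = 0.73. Neuron sums ran from 56.0 to 3442, with Prph and Rbfox3 at 0 in some libraries, and Schwann cell sums from 834.7 to 19740 with no marker at 0. The highest Arc value, 2.05, and the highest Schwann cell sum were in the same library, repeat 1 of the wild-type middle turn. Egr3 followed 7 strial marginal cell markers at r = 0.76. The strial sum was 345.6 and 314.2 in the wild-type apical turn, where Egr3 was low, against 744.5 and 1511 in the homozygous apical turn, and over the 3 turns 6 of the 7 markers had positive genotype estimates (median 1.04), with Kcne1 at 0 in some libraries. Endothelial markers ran against Arc and Atf3, at r = -0.72 each. The members' mean z-score had r = 0.69 with the sum of bone markers and 0.66 with that of strial markers. These correlations were the stronger ones of 11 marker lists, describe libraries that share groups and scaling, and the part of cell content in the members' values was not tested.

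**Figure D5:**
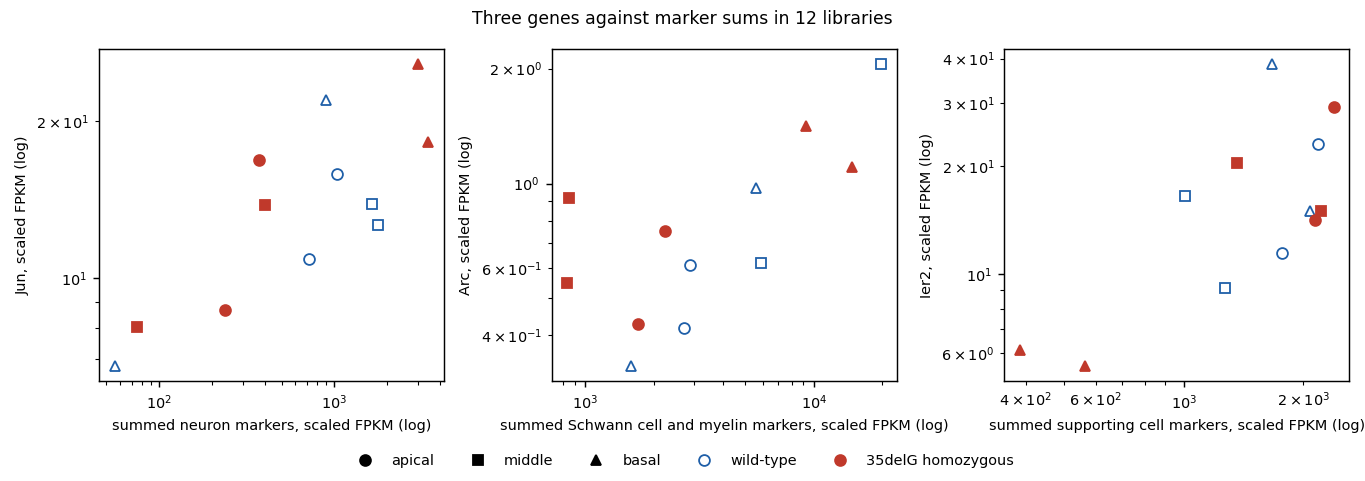
Scaled FPKM of Jun, Arc and Ier2 against the summed scaled FPKM of neuron, Schwann cell and myelin, and supporting cell markers in 12 libraries, all axes logarithmic. Jun is lowest where neuron markers are lowest (56.0), and Ier2 is lowest in the 2 homozygous basal libraries, whose supporting cell sums are 564.1 and 387.0. The supporting cell sums include Gjb2 and Gjb6.

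A list of 65 further immediate early genes, compiled by hand, held 55 that passed the filter. None of them was called between genotypes in the apical or middle turn with limma, where 14 and 17 were at an unadjusted p under 0.05, beside 16.4% and 25.4% of all genes. In the basal turn 2 were called higher in homozygous mice and 3 lower, against 410 higher and 286 lower, or 4.29%, of all genes. Egr2, a zinc finger factor that also drives myelination and is on the Schwann cell list, rose from 2.698 and 3.21 to 20.2 and 18.6 scaled FPKM, and Amigo3, an adhesion protein, rose from 1.81 and 5.71 to 20.3 and 16.3. Bdnf, a neurotrophin, fell from 1.85 and 2.003 to 0.0842 and 0.144. Klf10, a zinc finger repressor, fell from 7.93 and 9.96 to 4.01 and 3.40, and Rgs2, a regulator of G protein signalling, fell from 25.5 and 30.5 to 9.61 and 11.1. Averaged over the turns only Bdnf was called, beside 0.376% of all genes, with a log2 fold change of -1.15 (SE 0.11, adjusted p = 0.00221 with limma). Its highest homozygous value was 0.863 scaled FPKM, so Bdnf passed the filter through wild-type libraries alone. The Bdnf calls in the basal turn and on average are therefore not independent of the filter. In the wild-type middle turn Egr2 measured 7.66 and 11.9 and Amigo3 9.62 and 9.91, nearer to the homozygous basal values than the wild-type basal libraries were. Bdnf measured 1.16 and 1.41 there, Klf10 4.80 and 5.76 and Rgs2 25.9 and 17.6, each above both homozygous basal values.

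For the difference of the genotype effect between the basal and middle turns, 2 of the 55 were called higher (Egr2 and Amigo3) and 5 lower (Dusp6, Ier3, Klf10, Rgs2 and Sik1), beside 1027 higher and 418 lower, or 8.91%, of all genes. Between the basal and apical turns Egr2 was called higher, beside 0.796% of all genes called. Between the middle and apical turns 0 were called, beside 0%, with 6 at an unadjusted p under 0.05, beside 8.05% of all genes. Within homozygous mice, Egr2 was called higher and Ier3 lower in the basal than in the apical turn, beside 4.06% of all genes. Egr2 and Amigo3 were called higher and Ier3 and Rgs2 lower in the basal than in the middle turn, beside 4.66%. In the other 4 comparisons of turns within a genotype, 0 of the 55 were called, with 7, 13, 7 and 2 at an unadjusted p under 0.05 for the wild-type middle against apical, wild-type basal against apical, wild-type basal against middle and homozygous middle against apical comparisons. Of all genes, 19.9%, 20.3%, 15.2% and 2.65% were at that level, in the same order. The most abundant of the list were Jund, Ccn2 and Rhob.

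Of 31 genes of the kinases and factors that act upstream of immediate early genes, all tested, 0 were called between genotypes in any turn or on average. The counts at an unadjusted p under 0.05 were 3, 9, 10 and 3 for the apical, middle and basal turns and the mean with limma, beside 16.4%, 25.4%, 32.4% and 18.6% of all genes. For the basal against the middle turn, Camk4 and Mapk8 were called higher and Elk3 lower in the genotype effect, beside 8.91% of all genes. Elk3, a ternary complex factor, was also called lower in the homozygous basal than in the homozygous middle turn, beside 4.66% of all genes. Of 13 heat shock genes, whose induction is another known sign of stressed tissue, 0 were called in any of the 13 comparisons, with 0, 4, 7 and 3 at an unadjusted p under 0.05 in the same 4 genotype comparisons, to be read beside the same shares.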

How the data were processed

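RNA was measured in 12 libraries of 6 groups. The authors prepared VAHTS Universal libraries, trimmed reads with fastp 0.20.0, aligned them to mm10 with STAR 2.7.3a, kept unique reads, counted with featureCounts 2.0.0 and deposited FPKM from StringTie 2.0, the only values used. Their DESeq2 1.30.0 results were not used. Each library was scaled by the median ratio of its FPKM to the geometric mean, over the 11552 genes reaching 1 FPKM in all 12 libraries. The 16215 genes with at least 1 FPKM in 2 libraries were fitted on log2(scaled FPKM + 1) with limma 3.58.1 under R 4.3.3, using 6 group means, 6 residual and 2.78 prior degrees of freedom, a trend, two-sided tests and Benjamini-Hochberg adjustment over all genes tested. Folds on this scale understate changes of genes near 1 FPKM. The test was checked on simulated data. The depth of each library is unknown.

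All 10 members are named. From the longer lists, called genes and otherwise the 3 most abundant are named, except that the most abundant upstream genes are not reported here. The members and lists were chosen with earlier results of these data known. Comparisons between the 13 contrasts share libraries. Alternatives were another pseudocount, filters, scalings, blocks, weights, no trend, fits on the 2 groups alone and leaving out each library. Promoters are from RefSeq (GRCm38.p6). Figures were drawn with matplotlib 3.10.9.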

Additional observations from a re-analysis of the deposited data

How the results depend on the processing

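No member was called at the main thresholds in any of the 13 comparisons under any alternative fitted. At an adjusted p under 0.05, 1 member was called in the basal turn (Ier2), 1 in the basal against middle difference of the genotype effect (Ier2) and 1 between the homozygous basal and apical turns (Fosb). Of the 16215 genes tested, 1954, 3214 and 2012 were called at that level, in the same order. Fosb passed the filter partly through the homozygous apical turn. A filter of 5 FPKM left Fosb, Egr3, Atf3 and Arc out of the fit, and leaving out wild-type basal repeat 2 or homozygous apical repeat 2 left out Fosb. Nr4a1 over the 3 turns ranged from 0.79 to 0.90 with adjusted p from 0.0362 to 0.136 over the alternatives that kept every library, and Ier2 in the basal turn from -2.03 to -1.84 with adjusted p from 0.0316 to 0.155.

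Leaving out 1 library turned the direction of 14 member results, by their lowest and highest values. In the apical turn these were Jun (-0.54 to 0.34), Junb (-0.15 to 0.87), Ier2 (-0.19 to 0.80) and Arc (-0.082 to 0.21), without a wild-type apical or homozygous apical repeat. In the middle turn they were Jun (-0.66 to 0.056, without homozygous repeat 2), Junb (-0.25 to 1.20, without wild-type repeat 2), Atf3 (-0.44 to 0.092, without repeat 2 of either genotype) and Arc (-0.83 to 0.088, without wild-type repeat 1). In the basal turn they were Fos (-3.13 to 0.39) and Egr1 (-2.12 to 0.00084), without wild-type repeat 2, and Jun (-0.024 to 1.54), without wild-type repeat 1. Over the 3 turns they were Fos (-0.38 to 0.80), Jun (-0.14 to 0.38) and Arc (-0.095 to 0.21), lowest without wild-type basal repeat 1, the same, and wild-type middle repeat 2. The cause was not tested.

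Exchanging the wild-type middle and basal groups, chosen after the marker sums were seen, gave 0 called members in both turns. It turned Fos to -0.26, Fosb to -0.075, Junb to -0.57, Ier2 to -0.44 and Arc to 0.086 in the homozygous middle comparison. In that comparison Jun gave -0.21, Egr1 0.28 and Atf3 -0.059.

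Repeat numbers were not linked between groups. Deviations of same-numbered libraries had correlations of -0.432 to 0.450 over 15 pairs of groups, 4 of them above 0.1 and 6 below -0.1. With the repeat number as a block, calls over all genes went from 696 to 177 in the basal turn, 29 to 12 in the apical and middle turns, 61 to 34 on average, 1445 to 967 for basal against middle and 129 to 0 for basal against apical, while 0 members were called in each. The replicate block gave Nr4a1 over the turns an adjusted p of 0.0362.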

Other observations

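The 10 genes outside the members whose levels over the 12 libraries were most like the members' mean z-score were Mipep, Aar2, Tradd, Tomm6, Coq2, 2810004N23Rik, Bop1, Pgap2, Pgrmc2 and Ppp1r3b, with Pearson's r from 0.842 to 0.953. Mipep, a mitochondrial peptidase, ran from 3.45 scaled FPKM in repeat 1 to 8.11 in repeat 2 of the wild-type basal turn. None of the 10 was on the list of further immediate early genes. Of the 55 tested genes of that list 16 had r over 0.5, against 8.52% of all genes.

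Set against Fos alone, a comparison chosen after the values were seen, 6 of those 55 (10.9%) had r over 0.7 over the 12 libraries, against 0.907% of all genes tested. They were Dusp1, Ccn1, Socs3, Btg2, Zfp36 and Jund, with r from 0.729 to 0.815. Ccn1, a matricellular protein, measured 17.5 and 70.3 scaled FPKM in the 2 wild-type basal repeats, and Dusp1, a phosphatase that switches off MAP kinases, 15.7 and 30.2. The libraries share groups and scaling, so these are descriptions.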
